A study of Mus musculus with 77 samples.

Results

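Untreated disease progression was examined as the change in liver gene expression between 24 and 8 weeks of vehicle dosing in DIO-MASH mice, male C57BL/6JRj mice with metabolic dysfunction-associated steatohepatitis (MASH) brought on by diet. Members were taken by their treatment label, Vehicle_24_w for 7 mice and Vehicle_8_w for 9 mice, which gave 16 of the 77 liver libraries of the series, 1 library per mouse. The 8 mice labelled Vehicle_16_w stood between them as an intermediate time. All 24 of these mice stayed on the MASH diet throughout and received vehicle, the injection without drug. Weeks count from the start of dosing, when the mice had already been on the diet for months. The paper reports that fibrosis was widespread by then, in mice included on the basis of an earlier liver biopsy. The 8-week group is therefore not early disease. Mice given semaglutide (7, 8 and 8 mice at 8, 16 and 24 weeks), mice moved back to chow (chow reversal, 7, 8 and 8 mice) and chow-fed mice given vehicle for 24 weeks (7 mice) completed the design. Each mouse was killed at 1 time, so that age, time on the diet and day of killing moved together and cannot be told apart. Chow-fed mice were sampled at 24 weeks only.

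In MASH, fat accumulates in hepatocytes, which are injured and die, macrophages and other immune cells gather around them, and stellate cells lay down collagen. Oxidative stress is part of this injury. The transcription factor NRF2 is held down by KEAP1 in unstressed cells and, once released, binds together with small MAF proteins at antioxidant response elements in front of genes for glutathione metabolism, quinone reduction, NADPH supply and drug conjugation. Interferons act by another route, in which STAT and IRF factors bind interferon-stimulated response elements in front of antiviral genes.

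Total counts ranged from 13947596 to 20290696 per library at 24 weeks (median 16702433), against 12058912 to 37631091 for the 8-week libraries (median 16872462). Mitochondrially encoded genes held 2.66% to 6.54% of counts at 24 weeks and 4.65% to 7.30% at 8 weeks. The summed level of 25 hepatocyte identity genes was 81500 to 107000 CPM (counts scaled to a common library total) at 24 weeks, against 83200 to 105000 CPM at 8 weeks, so the tissue label held in both groups. The library number of the 8-week replicate 7 has the place that chow reversal takes in other sets of libraries. Over 942 genes higher and 209 lower with vehicle than with chow reversal, this library scored -0.33, against -1.32 to -0.41 in the other 8 vehicle libraries and -3.99 to -3.32 with chow reversal at 8 weeks. It was the vehicle library nearest to 0 and did not go against its label. Without it, 90 genes rose and 4 fell in the comparison that follows.

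The first question was which genes differed between the later and the earlier time. Of 14904 genes tested, 118 passed an adjusted p of 0.05 in edgeR's quasi-likelihood test (0.792%). They were 109 genes higher at 24 weeks (0.731%) and 9 lower (0.0604%). At an unadjusted p under 0.05 the numbers were 1033 higher (6.93%) and 701 lower (4.7%), the log2 fold change was positive for 51% of all genes, and its median was 0.01. The rises were larger than the falls. Of the 109 genes that rose, 61 did so more than 2-fold, 26 more than 4-fold and 9 more than 16-fold, with a median of 2.1-fold, whereas the 9 genes that fell had a median ratio of 0.695. The groups did not overlap in CPM for 17 of the 109 (all genes, 0.242%) and for 1 of the 9 (all genes, 0.0671%).

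Replicate 3 of 24 weeks stood apart as a library. On the first principal component of the vehicle libraries (25.9% of the variance) it lay at 78.9, and the other 6 at 24 weeks lay between -18.2 and 24.4. Its correlation with them in log2 CPM was 0.938 to 0.960, where pairs among the other 6 had 0.967 to 0.981, and its mitochondrial share, 2.66%, was the lowest of the group. Without it, 73 genes rose and 2 fell.

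Over the genes that rose, mice at 24 weeks were spread more widely than those at 8 weeks. Replicate 1 was the highest of the 7 libraries for 73 of the 109 genes that rose and replicate 3 for 31, whereas replicate 5 was the lowest for 64 and replicate 7 for 26. The mean log2 CPM over these 109 genes was 5.46 in replicate 1, 5.02 in replicate 3 and 3.65 in replicate 5, and at 8 weeks it lay between 3.00 and 3.41. All 7 libraries at 24 weeks thus stood above the 9 at 8 weeks on this mean, which the choice of the genes fixes in its direction. Without replicate 1 of 24 weeks, 53 genes rose and 0 fell, and without replicate 5, 150 rose and 23 fell.

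The smallest p values belonged to genes of amine and carbonyl breakdown and to an interleukin gene. Maoa encodes monoamine oxidase A, which oxidises serotonin and noradrenaline. It lay at 14.1 to 126 CPM (median 53.3) at 24 weeks, against 8.15 to 11.3 CPM (median 9.57) at 8 weeks. Chow-fed mice at 24 weeks had 13.5 to 17.2 CPM, above the 8-week vehicle range. Every 24-week mouse was above every 8-week mouse, and the fold change was 5.60 (log2 fold change 2.49 ± 0.23 SE, adjusted p = 7.1e-13). The SD of Maoa was 37.4 CPM at 24 weeks and 1.29 CPM at 8 weeks, a difference in spread that the fit does not model. Cbr3, a carbonyl reductase that uses NADPH, lay at 15.5 to 255 CPM (median 79.5) at 24 weeks and 2.75 to 8.43 CPM (median 4.96) at 8 weeks. Again the groups did not overlap, and Cbr3 rose 18.9-fold (4.24 ± 0.41, adjusted p = 4.3e-12). Il1f9, the gene of the epithelial cytokine interleukin-36 gamma, had 1.45 to 24.6 CPM (median 10.5) at 24 weeks, against 0.157 to 0.730 CPM (median 0.414) at 8 weeks. It rose 23-fold (4.53 ± 0.43, adjusted p = 2.2e-12), without overlap. Unlike for Maoa, chow-fed mice lay below most or all 8-week vehicle mice for Cbr3 (0.259 to 1.13 CPM) and Il1f9 (0 to 0.159 CPM).

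Several other large rises started from levels near the detection limit. Tekt5, a tektin known from sperm flagella, had 1.58 to 43.9 CPM (median 16.3) at 24 weeks, against 0 to 1.59 CPM (median 0.164) at 8 weeks. Only the lowest 24-week mouse fell within the 8-week range, and the fitted change was 55.8-fold (5.80 ± 0.61, adjusted p = 8.8e-11). Styk1, a receptor-like kinase, had 0.554 to 10.3 CPM (median 2.96) at 24 weeks and 0 to 0.334 CPM (median 0.102) at 8 weeks (27.4-fold, adjusted p = 8.5e-10). Slc1a1, a transporter of glutamate and cysteine, had 0.554 to 9.33 CPM (median 1.81) at 24 weeks and 0 to 0.203 CPM (median 0.134) at 8 weeks (19-fold, adjusted p = 4.7e-08). Neither of these groups overlapped. Sfn, which encodes the epithelial protein 14-3-3 sigma, rose 6.70-fold, with 2.69 to 20.0 CPM at 24 weeks and 0.865 to 2.69 CPM at 8 weeks (adjusted p = 4.7e-08). Fitted folds of genes with libraries at 0 depend on the prior count and are not bounds.

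**Figure D1:**
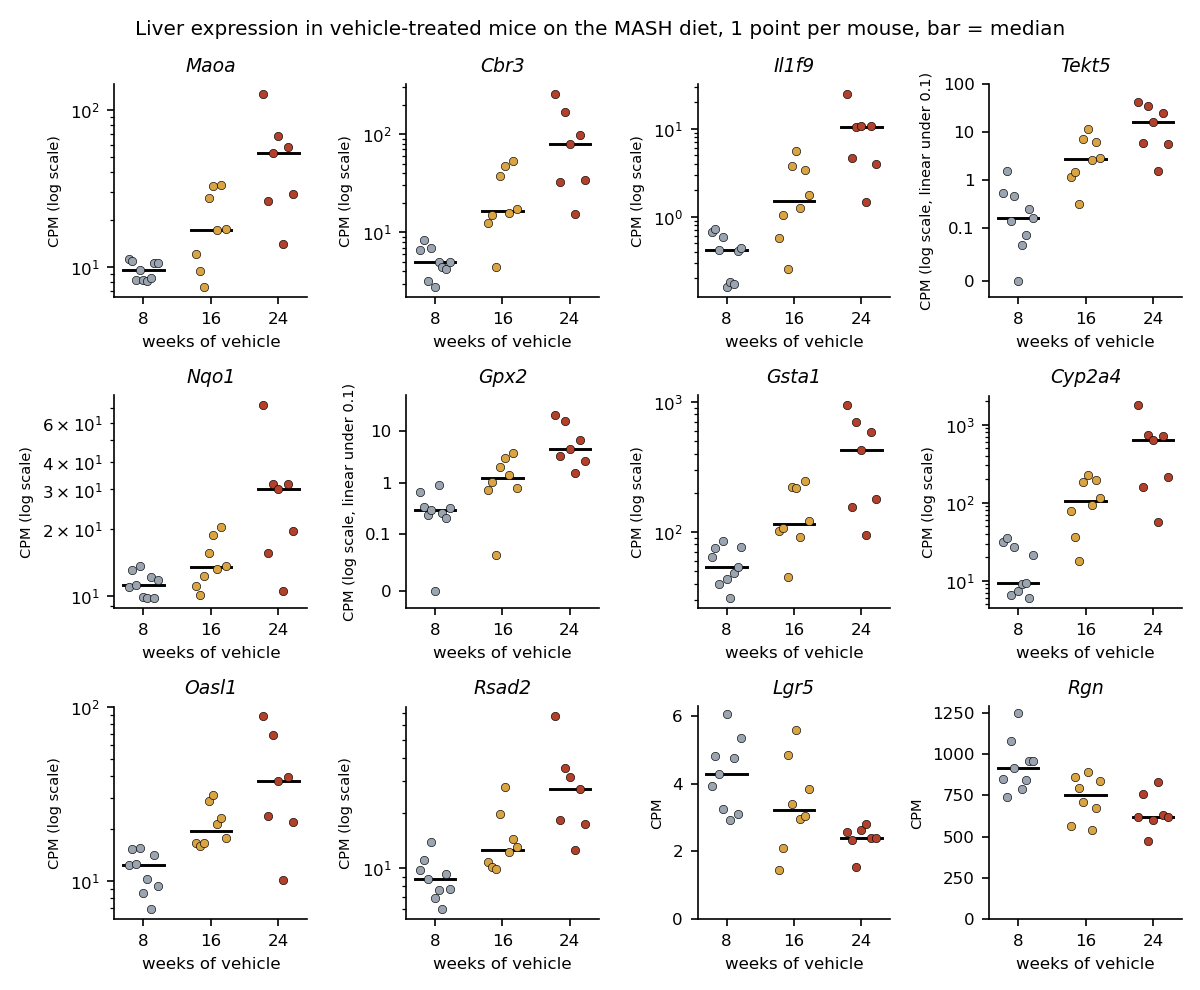
Liver expression of 12 genes in vehicle-treated mice on the MASH diet, in CPM (log axes, linear below 0.1 CPM for Tekt5 and Gpx2, and linear from 0 for Lgr5 and Rgn) against weeks of vehicle. Each point is 1 mouse (9, 8 and 7 mice at 8, 16 and 24 weeks) and the bar is the median. Maoa, Cbr3, Il1f9, Gpx2, Gsta1, Cyp2a4 and Lgr5 do not overlap between 24 and 8 weeks. On the log axes the points at 24 weeks are the most widely spread for Maoa, Cbr3, Gsta1 and Cyp2a4. For Il1f9 those at 16 weeks are (0.252 to 5.59 CPM, against 1.45 to 24.6 CPM at 24 weeks).

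NRF2 targets were the largest named group among the genes that rose. Of 31 listed targets tested, 15 rose and none fell (48.4%, against 0.731% of all genes), 23 were higher at an unadjusted p under 0.05, and 28 had a positive change. Over the list the log2 fold changes had a median of 0.55, against 0.01 for all genes. Its mean log2 CPM was 6.39 to 7.76 at 24 weeks (median 7.08), against 5.90 to 6.22 in 8-week mice (median 6.07), without overlap, and 5.32 to 5.55 in chow-fed mice at 24 weeks.

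Among enzymes that reduce quinones and peroxides, Nqo1, NAD(P)H quinone dehydrogenase, had 10.5 to 71.8 CPM (median 30.1) at 24 weeks, against 9.71 to 13.6 CPM (median 11.2) at 8 weeks. It rose 2.66-fold (1.41 ± 0.21, adjusted p = 1.5e-06), and 6 of the 7 mice at 24 weeks were above all at 8 weeks. Srxn1, sulfiredoxin, which restores oxidised peroxiredoxins, had 119 to 824 CPM (median 350) at 24 weeks and 70.3 to 126 CPM (median 92.2) at 8 weeks (3.5-fold, 1.81 ± 0.33, adjusted p = 0.00021). Here too 6 of the 7 mice were above all at 8 weeks. Gpx2, a glutathione peroxidase best known from the gut, had 1.53 to 20.5 CPM at 24 weeks and 0 to 0.905 CPM at 8 weeks (20.4-fold, adjusted p = 7.9e-08, no overlap). Gsr, glutathione reductase, rose 1.62-fold (adjusted p = 1.6e-05) and Txnrd1, thioredoxin reductase, 1.39-fold (0.47 ± 0.12, adjusted p = 0.03). Without replicate 1 of 24 weeks, which held the highest Txnrd1 value at 330 CPM, the log2 fold change was 0.28 and the adjusted p 0.33. Txnrd1 and Tkt each passed in 9 of the 16 fits that left out 1 library.

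Genes that supply cysteine, NADPH and iron storage belonged to the same set. Slc7a11, the cystine importer, rose 4.42-fold from low levels (adjusted p = 0.0052). In the pentose phosphate pathway, which makes NADPH, Pgd rose 2.10-fold (95.0 to 297 CPM at 24 weeks, 54.5 to 96.3 CPM at 8 weeks, adjusted p = 4.3e-05), Taldo1 1.58-fold (adjusted p = 0.00038) and Tkt 1.42-fold (adjusted p = 0.026). Fth1, the ferritin heavy chain, rose 1.33-fold (adjusted p = 0.022) and passed in 10 of the 16 fits that left out 1 library. The efflux pump Abcc4 rose 5.91-fold (9.47 to 108 CPM at 24 weeks, 3.77 to 10.7 CPM at 8 weeks, adjusted p = 9.1e-07). Slc48a1, which moves haem and was on no list, rose 1.71-fold (adjusted p = 1e-06).

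Of the targets that did not pass, 4 are named here for their role in the pathway, after their values were seen. The log2 fold change was 0.60 ± 0.23 for Gclc and 0.15 ± 0.13 for Gclm, the subunits of the enzyme that starts glutathione synthesis (adjusted p = 0.28 and 0.65). It was 0.29 ± 0.22 for haem oxygenase Hmox1 (adjusted p = 0.58) and -0.20 ± 0.13 for Nfe2l2, the gene of NRF2 itself (adjusted p = 0.54).

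**Figure D2:**
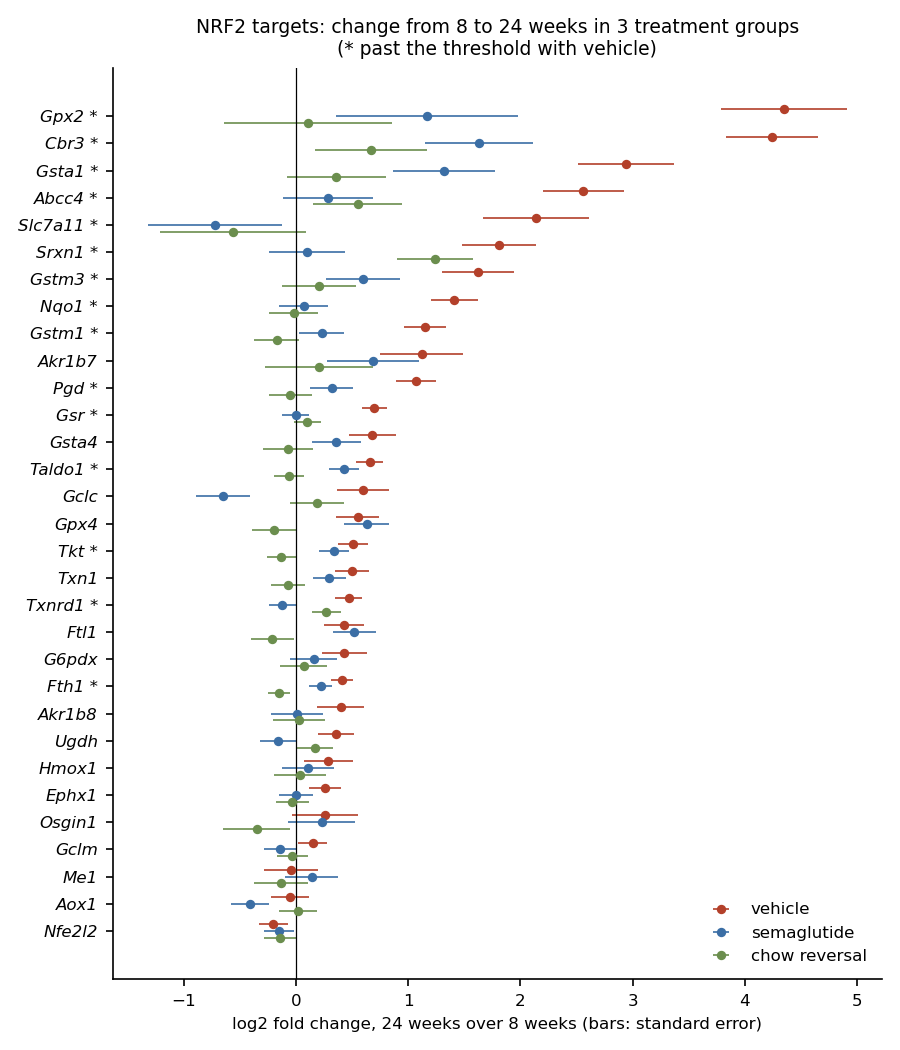
Log2 fold change between 24 and 8 weeks of the 31 NRF2 targets tested (horizontal axis), with 1 row per gene, in vehicle (red), semaglutide (blue) and chow reversal (green). Bars are 1 standard error and an asterisk marks the 15 targets past the threshold with vehicle. The vehicle points reach 4.35 for Gpx2 and 4.24 for Cbr3, and the medians over the list are 0.55 with vehicle, 0.22 with semaglutide and -0.02 with chow reversal.

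Glutathione S-transferases and P450 enzymes overlapped with this set. Of 42 listed P450 and phase II genes tested, 10 rose and none fell (23.8%, against 0.731% of all genes higher), with a median log2 fold change of 0.10. At an unadjusted p under 0.05, 13 of the 42 were higher and 8 lower, where 6.93% and 4.7% of all genes were. The risen genes were 6 transferases that join glutathione to electrophiles (Gsta1, Gsta2, Gstm1, Gstm2, Gstm3 and Gstm4), the P450 enzymes Cyp2a4, Cyp2a5 and Cyp1a1, and the glucuronidating Ugt1a9. Gsta1 had 95.2 to 941 CPM (median 429) at 24 weeks and 30.8 to 84.9 CPM (median 54.1) at 8 weeks, a 7.69-fold rise without overlap (2.94 ± 0.43, adjusted p = 1.5e-06). Gstm1 had 2190 to 11200 CPM (median 4760) at 24 weeks and 2010 to 3550 CPM (median 2210) at 8 weeks (2.22-fold, adjusted p = 5.6e-05). For Gstm1, 4 of the 7 mice were above all at 8 weeks.

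Cyp2a4, a steroid hydroxylase higher in female mouse liver, had 56.8 to 1770 CPM (median 643) at 24 weeks, against 5.95 to 35.1 CPM (median 9.41) at 8 weeks. The groups were apart and the fold change was 36 (5.17 ± 0.80, adjusted p = 7.8e-06). Cyp2a5, its near-identical neighbour, rose 3.23-fold (adjusted p = 0.0049), with 620 to 5840 CPM (median 2470) at 24 weeks and 362 to 1400 CPM (median 681) at 8 weeks, which overlapped. The split of reads between these copies is uncertain, as it is among Gsta1, Gsta2 and their near-identical relatives, within the Gstm cluster, and for Ugt1a9, which shares exons with other Ugt1a genes. Cyp2a5 and Cyp1a1 each passed in 15 of the 16 fits that left out 1 library, and Gstm2 in 13. Without replicate 1 of 24 weeks, the adjusted p was 0.107 for Cyp2a5 and 0.287 for Cyp1a1. Of the P450 genes that did not pass, named after their values were seen, Cyp3a11 had a log2 fold change of -0.63 ± 0.20 (adjusted p = 0.15) and Cyp2c54 of -1.11 ± 0.40 (adjusted p = 0.23).

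The next question was whether NRF2-type motifs lie in front of these genes. Promoter windows were read from RefSeq (GRCm38.p6, 250 bases before to 50 after the first start listed), and 81 of the 109 genes that rose had one. The antioxidant response element core TGACNNNGC, searched on both strands, was in 2 of the 14 risen NRF2 targets with a promoter (14.3%: Abcc4 and Srxn1), against 14.6% of 10944 tested genes and 12.5% of all 27025 promoters, a share at the background. It was in 7 of the 27 listed targets with a promoter (25.9%) and in 17 of the 81 genes that rose (21.0%). A further form, TGANTCAGC, was searched after these counts were seen and overlaps the first in part. It was in 1 of the 14 (7.14%: Srxn1), in 3 of the 27 (11.1%) and in 4 of the 81 (4.94%: Cxcl10, Ifit3, Psap and Srxn1), against 1.06% of the genes tested and 1.17% of all promoters. Sites outside these windows were not searched. The Srxn1 window (chr2:152105274-152105573, plus strand) is given because it held both forms. Capitals mark TGANTCAGC, 45 bases before the start.
Srxn1: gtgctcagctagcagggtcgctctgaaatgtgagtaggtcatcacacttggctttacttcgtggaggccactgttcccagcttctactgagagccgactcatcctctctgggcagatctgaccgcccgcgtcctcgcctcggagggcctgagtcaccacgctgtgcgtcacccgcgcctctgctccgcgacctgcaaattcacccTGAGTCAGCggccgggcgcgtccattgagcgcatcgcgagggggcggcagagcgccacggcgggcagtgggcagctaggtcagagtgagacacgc

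Interferon-stimulated genes formed another group. Of 36 tested, 5 rose and none fell (13.9%, against 0.731% of all genes higher). At an unadjusted p under 0.05, 18 of the 36 were higher (6.93% of all genes), and 33 had a positive change (51% of all genes), with a median log2 fold change of 0.38. Rsad2, viperin, which blocks viral replication, had 12.6 to 67.3 CPM (median 27) at 24 weeks, against 5.97 to 13.9 CPM (median 8.70) at 8 weeks. It rose 3.32-fold (1.73 ± 0.23, adjusted p = 2.1e-07), and 6 of the 7 mice were above all at 8 weeks. Oasl1, a relative of the oligoadenylate synthetases, had 10.2 to 88.4 CPM (median 37.5) at 24 weeks and 6.87 to 15.5 CPM (median 12.3) at 8 weeks (3.55-fold, 1.83 ± 0.22, adjusted p = 1.4e-08). The lowest 24-week mouse lay inside the 8-week range for both genes.

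The other 3 changed less. Mx1, an antiviral GTPase, rose 2.22-fold (2.09 to 12.8 CPM at 24 weeks, 1.34 to 4.08 CPM at 8 weeks, adjusted p = 0.012). Isg15, a ubiquitin-like protein, rose 1.76-fold (adjusted p = 0.024) and Ifit3, which binds viral RNA, 1.54-fold (adjusted p = 0.034). Without replicate 1 of 24 weeks none of these 3 passed: the log2 fold changes were 0.79, 0.66 and 0.56 and the adjusted p values 0.24, 0.19 and 0.15. Cxcl10, a chemokine that interferon induces, rose 2.04-fold (1.03 ± 0.25, adjusted p = 0.016), and without the same library the log2 fold change was 0.82 and the adjusted p 0.17. Of the 16 fits that left out 1 library, Mx1 passed in 15, Cxcl10 in 12, Isg15 in 11 and Ifit3 in 7.

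The interferon-stimulated response element, GAAA repeated after any 2 bases, was searched on both strands. It was in 17 of 26 listed interferon-stimulated genes with a promoter (65.4%), against 3.31% of the genes tested and 3.49% of all promoters. Among the 4 risen members with a promoter it was in 3 (75%: Rsad2, Isg15 and Ifit3), and among the 81 genes that rose in 6 (7.41%). Rsad2 (chr12:26456403-26456702, minus strand) and Isg15 (chr4:156200769-156201068, minus strand) are shown on the gene's own strand, with the matches in capitals, as a single site 120 bases before the start (read on the opposite strand) and as overlapping matches from 78 bases before it. A match is a description of the letters and not evidence of binding.
Rsad2: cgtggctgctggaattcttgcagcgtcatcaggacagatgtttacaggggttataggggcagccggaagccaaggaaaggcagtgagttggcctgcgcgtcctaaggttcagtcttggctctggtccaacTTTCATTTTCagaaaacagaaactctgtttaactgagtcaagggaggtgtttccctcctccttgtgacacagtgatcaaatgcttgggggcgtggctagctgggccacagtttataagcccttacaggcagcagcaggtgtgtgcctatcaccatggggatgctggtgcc
Isg15: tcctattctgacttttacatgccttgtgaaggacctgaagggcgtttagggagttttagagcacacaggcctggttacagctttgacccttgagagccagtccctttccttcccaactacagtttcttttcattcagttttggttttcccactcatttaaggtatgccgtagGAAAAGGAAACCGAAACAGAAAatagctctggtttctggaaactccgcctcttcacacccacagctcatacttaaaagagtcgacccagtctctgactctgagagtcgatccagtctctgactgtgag

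Macrophage and antigen presentation lists had positive median changes with few members past the threshold. In bulk tissue a change in the number of cells of a type and a change in RNA per cell cannot be told apart. Of 18 genes of lipid-associated macrophages, the phagocytes that gather at dying fat-laden cells, all had a positive change (51% of all genes; median 0.38), and 1 passed (0.731% of all genes), Ctsd, the lysosomal protease cathepsin D (720 to 1300 CPM at 24 weeks, 584 to 722 CPM at 8 weeks, 1.4-fold, adjusted p = 0.016). Without replicate 3 of 24 weeks the adjusted p of Ctsd was 0.20. Trem2, a lipid-sensing receptor of these cells, had 22.8 to 71.1 CPM at 24 weeks and 12.6 to 28 CPM at 8 weeks, a log2 difference of 0.74 ± 0.39 (adjusted p = 0.45).

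Of 32 lysosomal genes 2 rose (6.25%, against 0.731% of all genes), Ctsd and Psap (prosaposin, a source of lipid-degrading cofactors, 1.32-fold, adjusted p = 0.025). At an unadjusted p under 0.05, 15 were higher (6.93% of all genes). The list's mean log2 CPM did not overlap, at 6.704 to 6.925 at 24 weeks and 6.458 to 6.697 at 8 weeks. All 14 MHC class II genes, which present antigen to helper T cells, had a positive change (51% of all genes) with a median of 0.52, but none passed. The smallest p was that of H2-DMa, which loads peptides (0.71 ± 0.19, adjusted p = 0.055). None of 17 Kupffer cell markers passed (median 0.30). Their summed level was 1370 to 2080 CPM (median 1580) at 24 weeks and 906 to 1680 CPM (median 1170) at 8 weeks. All 19 markers of monocytes and dendritic cells had a positive change (median 0.31) and none passed, and their mean log2 CPM was 2.11 to 2.38 at 24 weeks and 1.62 to 2.15 at 8 weeks. Of 23 T cell markers 20 had a positive change (median 0.31) and none passed. Their mean log2 CPM was -0.33 to 1.12 (median 0.51) at 24 weeks, against -0.23 to 1.34 (median 0.06) at 8 weeks. The summed T cell level, which the most abundant markers set, had the other order, with medians of 41.7 CPM at 24 weeks and 45.9 CPM at 8 weeks. The part of these cell type levels in the changes above was not tested.

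Among sensors, Tlr2, a receptor of bacterial lipoproteins, rose 1.60-fold without overlap (11.9 to 22.8 CPM at 24 weeks, 7.96 to 11.4 CPM at 8 weeks, adjusted p = 0.044), and Naip2, an inflammasome sensor, rose 1.48-fold (adjusted p = 0.014). Tlr2 passed in 6 of the 16 fits that left out 1 library. Of 26 Toll-like receptor and NF-kappaB genes 1 rose, and of 19 inflammasome and pyroptosis genes 1 rose, against 0.731% of all genes. Of 25 B and plasma cell genes, only Ighg3, an immunoglobulin constant region, passed (4%, against 0.731% of all genes higher). Ighg3 had 0 to 2.59 CPM at 24 weeks and 0.0430 to 0.134 CPM at 8 weeks (adjusted p = 8.6e-05). The list median was 0.56. H2-T22, a non-classical MHC class I gene with close relatives, rose 1.39-fold (adjusted p = 0.0008).

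**Figure D3:**
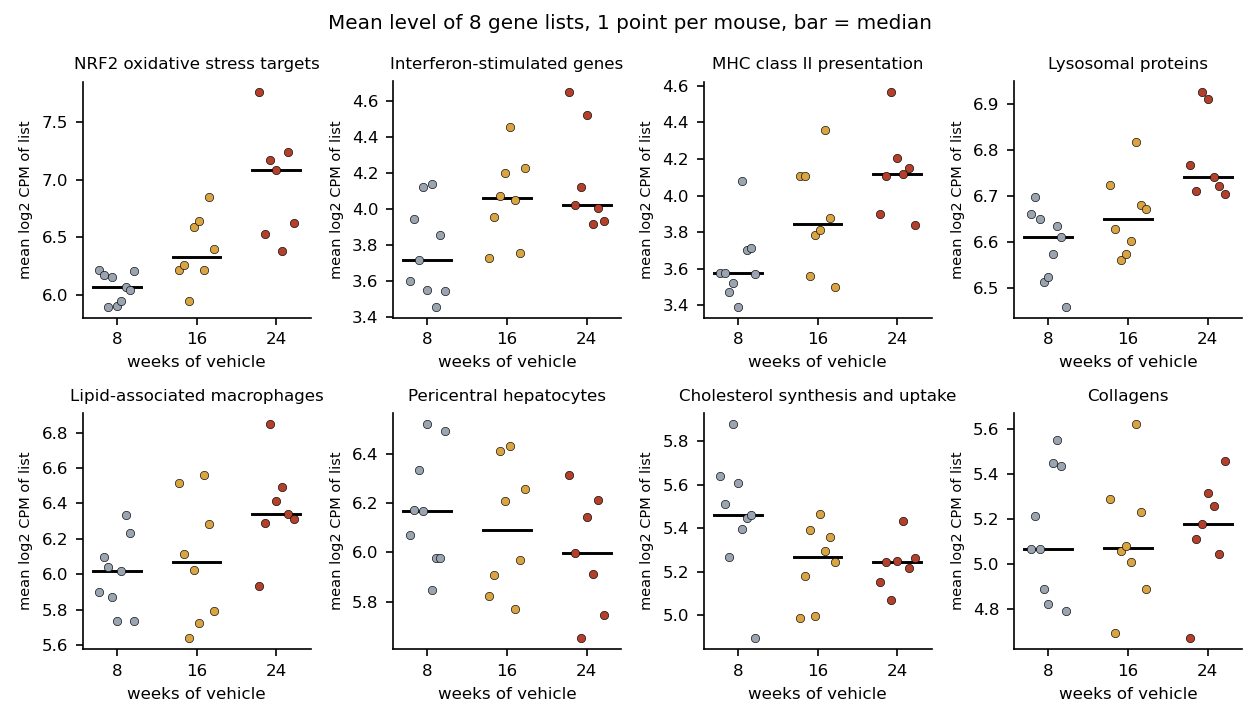
Mean log2 CPM of 8 gene lists (vertical axes, not starting at 0) in vehicle-treated mice against weeks of vehicle. Each point is 1 mouse and the bar is the median. The NRF2 and lysosomal lists do not overlap between 24 and 8 weeks, and the collagen list does (4.67 to 5.46 at 24 weeks, 4.79 to 5.55 at 8 weeks).

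Fewer genes fell, and the 9 that did had the weaker calls. Lgr5, a receptor that amplifies WNT signals and marks hepatocytes around the central vein, had 1.53 to 2.81 CPM (median 2.40) at 24 weeks, against 2.92 to 6.06 CPM (median 4.28) at 8 weeks. The groups did not overlap and the ratio was 0.561 (-0.83 ± 0.22, adjusted p = 0.037). Rgn, regucalcin, a pericentral calcium-binding enzyme, had 471 to 832 CPM (median 620) at 24 weeks and 739 to 1250 CPM (median 915) at 8 weeks (ratio 0.695, adjusted p = 0.023), with 5 of 7 mice below all at 8 weeks. These 2 were the members past the threshold of 21 pericentral genes, whose median log2 fold change was -0.20. Of all genes, 0.0604% passed as lower. Before adjustment, 7 of the 21 were below a p of 0.05 as lower and 2 as higher, where 4.7% and 6.93% of all genes were. Of the members that did not pass, chosen in the same way, Cyp2e1, which oxidises ethanol, had a log2 fold change of -0.63 ± 0.20 (adjusted p = 0.14), and Cyp1a2 0.79 ± 0.24 (adjusted p = 0.13).

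Gcnt4, an enzyme of glycan synthesis, had the lowest ratio at 0.539 (1.07 to 3.11 CPM at 24 weeks, 2.67 to 6.05 CPM at 8 weeks, adjusted p = 0.013). Crot, which moves fatty acids out of peroxisomes, had a ratio of 0.668 (adjusted p = 0.048), Hsd3b7, an enzyme of bile acid synthesis, 0.735 (adjusted p = 0.049), and the protease inhibitor Mug1 0.675 (adjusted p = 0.049). The remaining 3 were Bace1, Ppm1b and Dnajc22, with ratios of 0.775, 0.785 and 0.785. Of the 16 fits that left out 1 library, Lgr5 passed in 6 (adjusted p 0.0532 to 0.171 in the others), Rgn in 11, Gcnt4 in 14 and Crot in 5. None of the 9 passed in every such fit, and without replicate 1 of 24 weeks none passed.

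Fibrosis genes did not pass the test between these times. Of 18 collagens, 29 matrix remodelling genes, 19 stellate cell genes and 18 genes of TGF-beta and PDGF signalling, none passed. Their median log2 fold changes were -0.03, 0.09, 0.03 and 0.04. Col1a1, the main fibrillar collagen, had 62.4 to 140 CPM (median 99.7) at 24 weeks, against 57.9 to 129 CPM (median 93.8) at 8 weeks and 3.58 to 12.1 CPM in chow-fed mice (log2 fold change 24 over 8 weeks 0.18 ± 0.31, adjusted p = 0.83). Timp1, an inhibitor of matrix proteases, had 2.09 to 8.31 CPM at 24 weeks and 2.52 to 6.09 CPM at 8 weeks (0.42 ± 0.35, adjusted p = 0.62). Mmp13, a collagenase, had 0.70 ± 0.35 (adjusted p = 0.43) and Acta2, a myofibroblast actin, 0.00 ± 0.25 (adjusted p = 1). These p values do not show that fibrosis genes stayed level. The standard errors rest on a spread shared among all groups, so they do not bound the differences that could have been missed.

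Few genes of hepatocyte metabolism passed. None of 25 hepatocyte identity genes passed (median -0.03), and none of 13 mitochondrially encoded genes (median -0.28). Nor did any of 29 genes of cholesterol synthesis and uptake (median -0.19, 5 of the 29 positive, against 51% of all genes). Of 30 genes of fatty acid and triglyceride synthesis 1 rose (3.33%, against 0.731% of all genes). This was Elovl7, a fatty acid elongase (5.73-fold, 5.71 to 37.4 CPM at 24 weeks, 1.10 to 4.98 CPM at 8 weeks, adjusted p = 5.2e-07).

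**Figure D4:**
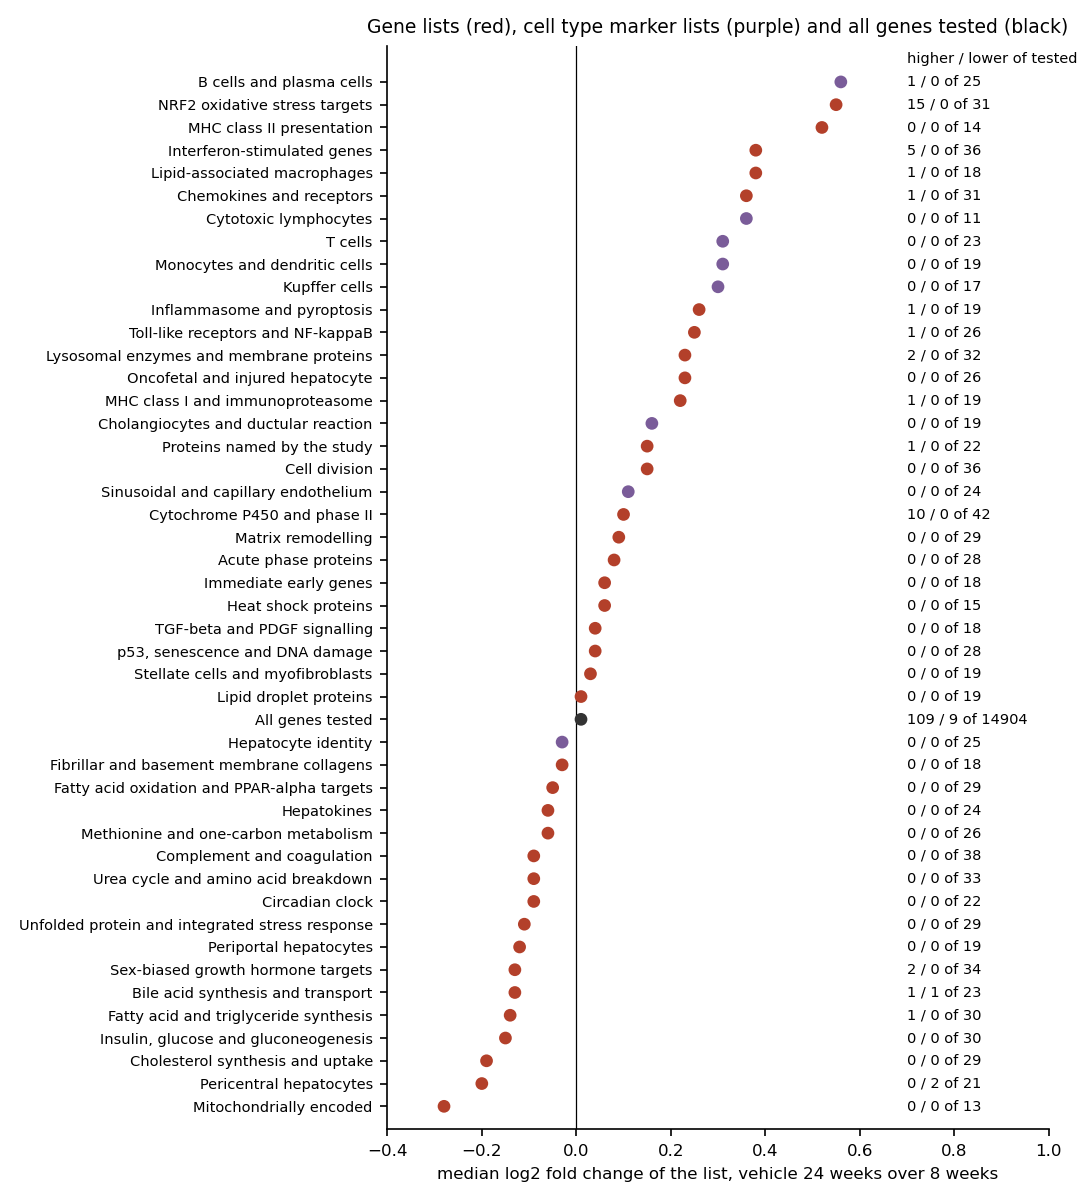
Median log2 fold change of vehicle 24 weeks over 8 weeks (horizontal axis) for each gene list (red) or cell type marker list (purple) with at least 10 genes tested, and for all genes tested (black). Numbers on the right are genes higher and lower past the threshold of those tested, such as 15 and 0 of 31 NRF2 targets against 109 and 9 of 14904 genes.

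At 16 weeks most of these genes lay in between. The 16-week median was between the medians of the other times for 105 of the 109 genes that rose and 8 of the 9 that fell, and 108 of the 109 had a positive log2 fold change at 16 against 8 weeks, where 50.9% of all genes did. These comparisons share the 8-week libraries. The genes were also chosen for their gap between 24 and 8 weeks, which favours a 16-week median in between. The share of all genes with such a median was not computed. Maoa medians were 9.57, 17.4 and 53.3 CPM at 8, 16 and 24 weeks. Alone, 16 against 8 weeks gave 6 genes higher (0.0403%: Tekt5, Cbr3, Il1f9, Styk1, Maoa and Slc1a1) and 0 lower. At an unadjusted p under 0.05 there were 563 higher (3.78%) and 511 lower (3.43%), and DESeq2 gave 4 and 1. For 24 against 16 weeks 7 were higher (0.047%: Maoa, Il1f9, Nqo1, Cbr3, Gsr, Slc48a1 and the pseudogene H2-T-ps) and 0 lower, with 291 (1.95%) and 195 (1.31%) at an unadjusted p under 0.05 and 15 and 1 by DESeq2. In this step 52.1% of all genes had a positive change. Maoa, Cbr3 and Il1f9 passed in both steps. In a fit of the 24 vehicle libraries alone, no gene passed as higher in either step. By list, the NRF2 targets had median log2 fold changes of 0.26 for 16 over 8 weeks and 0.39 for 24 over 16 weeks. The interferon-stimulated genes had 0.27 and 0.04, and the lipid-associated macrophage genes 0.11 and 0.31. The steps share the 16-week libraries, and the difference between them was not tested.

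The last question was whether the change with vehicle differed from that in treated mice over the same weeks, tested as the difference between changes. Against semaglutide, the log2 fold change was higher with vehicle for 9 genes (0.0604%) and lower for 0. At an unadjusted p under 0.05 there were 374 (2.51%) and 307 (2.06%), and DESeq2 gave 13 and 3. Within semaglutide itself, 24 against 8 weeks gave 2 genes higher and 0 lower past the threshold. There, 3804 of 14904 genes had an unadjusted p under 0.05 in either direction, against 1734 with vehicle. Maoa had medians of 8.75 CPM at 24 weeks and 8.69 CPM at 8 weeks with semaglutide, and its difference in log2 change was 2.44 ± 0.33 (adjusted p = 2.2e-06). Rsad2 had a difference of 2.08 ± 0.34 (adjusted p = 0.00032) and Il1f9 of 4.07 ± 0.71 (adjusted p = 0.0011). H2-T-ps, Oasl1, Ugt1a9, Elovl7, Ndrg1 and Nqo1 were the others. With the set of library numbers as a term in the fit, 3 of the 9 passed. Replicate 8 of semaglutide at 24 weeks has a library number apart from those of the other replicates. Predicted genes held 4.58% of its counts, against 1.71% to 2.46% in the rest of its group.

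Both of these comparisons share the vehicle libraries. Against chow reversal, the log2 fold change was higher with vehicle for 31 genes (0.208%) and lower for 1 (0.00671%), the actin-binding Nebl. At an unadjusted p under 0.05 there were 771 (5.17%) and 1262 (8.47%). Hamp2 (0.67 with vehicle, -2.37 with chow reversal), Bcl2a1d (0.91, -1.96), Dok1 (0.49, -0.54) and Arhgap9 (0.48, -0.62) moved further with chow reversal. So did Nebl (-0.62, 0.93). The 31 genes higher with vehicle included 6 of the 31 NRF2 targets tested and 5 of the 42 P450 and phase II genes. Gsta1 and Gstm1 are on both lists. Against semaglutide, 1 gene of each list passed as higher with vehicle, Nqo1 and Ugt1a9. Cbr3 had medians of 1.00 CPM at 24 weeks and 1.32 CPM at 8 weeks with chow reversal, and a difference of 3.58 ± 0.65 (adjusted p = 0.0014). For Nqo1 the difference was 1.44 ± 0.30 (adjusted p = 0.013). Srxn1 did not pass (0.56 ± 0.47, adjusted p = 0.56). With chow reversal it ranged from 38.2 to 562 CPM at 24 weeks, against 42 to 54.6 CPM at 8 weeks. Its 24-week median there was 47.2 CPM, but the highest mouse drew the mean to 110 CPM (SD 183). Of the 109 genes that rose with vehicle, 87 had a positive change with semaglutide (median 0.28, all genes 50.5% positive) and 51 with chow reversal (median -0.02, all genes 53.6% positive).

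**Figure D5:**
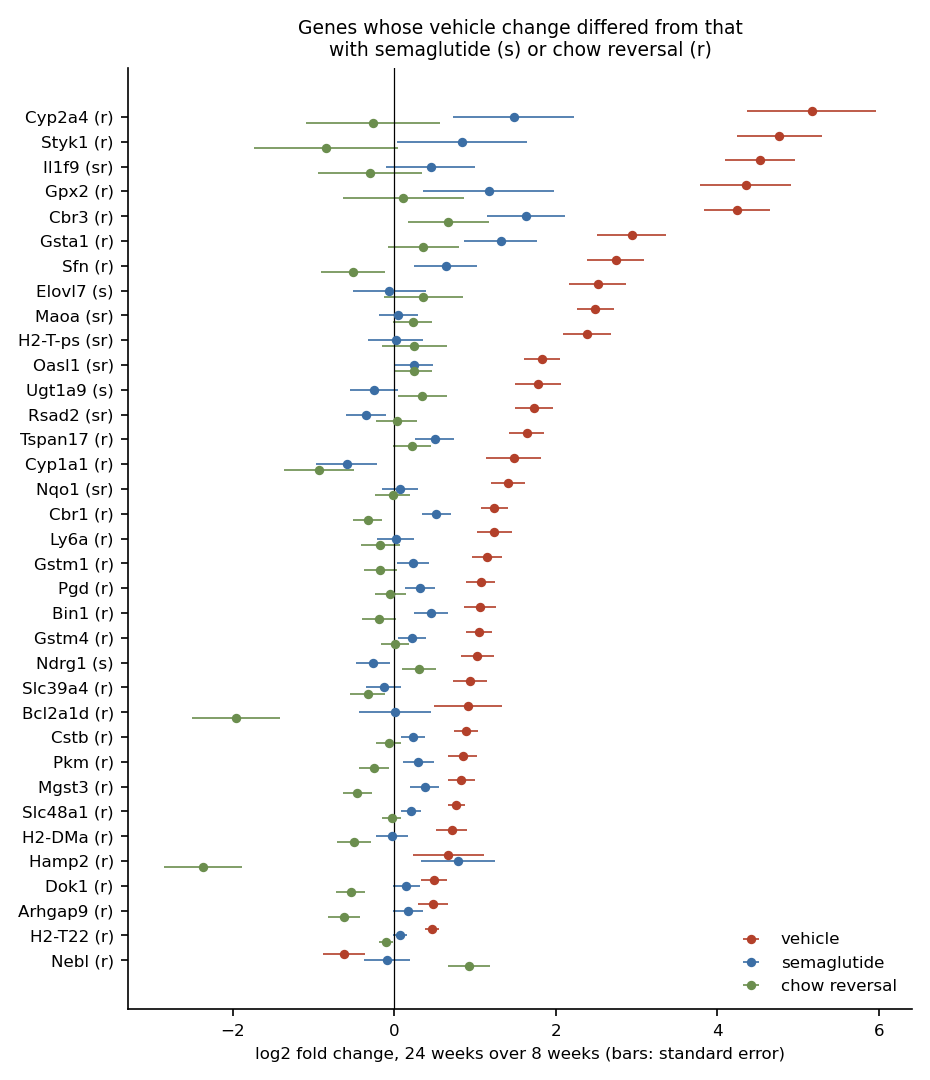
Log2 fold change of 24 over 8 weeks (horizontal axis) in vehicle (red), semaglutide (blue) and chow reversal (green), with 1 row per gene, for the genes whose change with vehicle differed past the threshold from that with semaglutide (s) or chow reversal (r). Bars are 1 standard error. Il1f9, Maoa, H2-T-ps, Oasl1, Rsad2 and Nqo1 carry both letters, and Maoa stands at 2.49 with vehicle, 0.05 with semaglutide and 0.23 with chow reversal.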

How the data were processed

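Liver RNA (left lateral lobe) was sequenced as 1 library per mouse (NEBNext Ultra II Directional kit, NextSeq 500). The authors deposited a table of estimated counts per gene for 77 libraries, of which 7.548% of values were fractional. The submitters' processing notes name Salmon 1.2.0, STAR 2.7.3a, FastQC 0.11.9, Picard, DESeq2 and GRCm38, and the annotation release and strand setting are not given in the sources used here. GENCODE names were matched to 55227 of 55487 gene IDs, and the other 260 held 0.0155% of counts.

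Counts were rounded to whole numbers and fitted with edgeR 4.0.16 (quasi-likelihood test, R 4.3.3) over all 77 libraries in 10 groups, after filterByExpr (14904 genes kept) and TMM scaling, with Benjamini-Hochberg adjustment at 0.05. Standard errors are the log2 fold change over the square root of F. The fit shares its estimate of each gene's spread among all groups. Standard errors and p values therefore do not reflect the wider spread of the vehicle mice at 24 weeks. Levels are CPM with TMM scaling, and log2 CPM has a prior count of 2. Differences between changes were interaction contrasts. The test was run on simulated counts of 14664 genes with known changes between 24 and 8 weeks of vehicle. It recovered 21 of 50 genes changed 1.5-fold, 39 of 49 changed 2-fold, 46 of 50 changed 4-fold and 49 of 49 changed 8-fold. It also called 17 of 14466 unchanged genes. As a share of its calls, these were above the 0.05 that the adjustment aims at. No pair of replicates agreed within sampling noise (at least 10.3 in chi-square per gene). Replicates are separate mice.

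The genes and lists were chosen with earlier results of these data known. Genes named are the 15 largest and 10 most significant in each direction, the called members of each list or otherwise up to 3 of smallest p, 6 genes of fibrosis and macrophages, and the leading genes of each further comparison (8 in each difference, 5 in each direction at each step). Others are named as such. Alternatives were DESeq2 1.42.0, RLE factors, library totals, no filter, fits of fewer libraries, a term for sets of 10 consecutive library numbers, and leaving out each library.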

Additional observations from a re-analysis of the deposited data

Results flagged for a closer look

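Of 114 groups of 7 or 9 values examined (the named genes past the threshold at 24 and 8 weeks), 6 held a library that stood apart from the others of its group, where chance gives about 1 in 20. At 24 weeks these were Txnrd1 in replicate 1 (330 CPM, the next at 191) and Lgr5 in replicate 3 (1.53 CPM, the next at 2.35). At 8 weeks they were Gstm1 in replicate 9 (3550 CPM), Gstm3 in replicate 3 (194 CPM), Ighg3 in replicate 1 (0.134 CPM) and Slc1a1 in replicate 5 (0 CPM).

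The change between 24 and 8 weeks differed between vehicle and semaglutide, as a difference of log2 fold changes past the threshold, for Il1f9 (4.07), Elovl7 (2.58), Maoa (2.44), H2-T-ps (2.37), Rsad2 (2.08), Ugt1a9 (2.03), Oasl1 (1.59), Nqo1 (1.35) and Ndrg1 (1.3).

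Between vehicle and chow reversal it differed for 32 genes, of which the 22 named by rule were Styk1 (5.62), Cyp2a4 (5.42), Il1f9 (4.83), Gpx2 (4.24), Cbr3 (3.58), Sfn (3.26), Hamp2 (3.04), Gsta1 (2.59), Cyp1a1 (2.41), Maoa (2.26), H2-T-ps (2.15), Rsad2 (1.7), Oasl1 (1.59), Cbr1 (1.58), Nqo1 (1.44), Gstm1 (1.32), Mgst3 (1.29), H2-DMa (1.2), Pgd (1.12), Gstm4 (1.04), Slc48a1 (0.8) and H2-T22 (0.57). The other 10 were Bcl2a1d (2.87), Tspan17 (1.43), Ly6a (1.41), Slc39a4 (1.27), Bin1 (1.24), Pkm (1.11), Arhgap9 (1.1), Dok1 (1.02), Cstb (0.96) and, in the other direction, Nebl (-1.54). Hamp2, a hepcidin gene, differed through chow reversal, where its own log2 fold change was -2.37 ± 0.48, against 0.67 ± 0.44 with vehicle.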

How the results depend on the processing

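Of the 109 genes higher at 24 weeks, 48 passed in all 16 fits that left out 1 library, 63 in all 7 other settings, and 43 in both, whereas of the 9 lower genes 0, 2 and 0 did. Leaving out 1 library gave 53 to 150 higher and 0 to 23 lower. Without replicate 3 of 24 weeks the numbers were 73 and 2. The lower calls moved with most choices, with 20 by DESeq2, 3 with library totals, 4 without a filter, 41 in the fit of the vehicle libraries and 56 in that of the 16 libraries alone. Those last fits gave 184 and 173 higher, of which 92 and 78 were among the 109. DESeq2 shared 108 of the 109. In the fit of the vehicle libraries 0 genes were higher at 16 against 8 weeks and 0 at 24 against 16 weeks.

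DESeq2 gave 1 lower at 16 against 8 weeks, 15 higher and 1 lower at 24 against 16 weeks, 3 lower for vehicle minus semaglutide, 52 higher and 6 lower for vehicle minus chow reversal, 453 and 141 within semaglutide and 28 and 4 within chow reversal, where edgeR gave 2 and 0 and then 6 and 1. The library set term gave 1 lower at 24 against 16 weeks, 3 higher for vehicle minus semaglutide, 0 lower for vehicle minus chow reversal, 1 lower within semaglutide, and 0 and 0 within chow reversal. Library totals gave 0 lower for vehicle minus chow reversal and 1 lower within semaglutide. No filter gave 1 lower for vehicle minus semaglutide, 0 lower for vehicle minus chow reversal and 10 higher within chow reversal. RLE factors gave 3 lower for vehicle minus chow reversal and 5 higher and 1 lower within semaglutide. The cause was not tested. No named gene turned its direction past the threshold in these settings.

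No paired analysis was possible because each mouse was killed at 1 time and replicate numbers are only names, so that mice could not be paired by animal or by number. A fit blocked by library set was run, and for 24 against 8 weeks it gave 110 higher and 6 lower, of which 95 and 5 were among the 109 and 9. Age, time on the diet and day of killing cannot be told apart. In simulated counts of equal spread, changes of 1.5-fold were often missed at this depth and number of mice. A list with none past the threshold is therefore not shown to be level.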

Other observations

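Among lists not described above, none of 36 cell division genes passed, with median log2 fold changes of -0.16 for 16 over 8 weeks and 0.32 for 24 over 16 weeks. None of 26 genes of oncofetal and injured hepatocytes passed (median 0.23 for 24 over 8 weeks, 5 higher and 1 lower at an unadjusted p under 0.05), and none of 33 genes of the urea cycle and amino acid breakdown (median -0.09, 7 lower and 1 higher). Of all genes, 6.93% were higher and 4.7% lower at that p. None of 30 genes of insulin, glucose and gluconeogenesis passed (median -0.15), nor of 29 genes of the unfolded protein and integrated stress response (median -0.11), 28 of p53, senescence and DNA damage (median 0.04) or 22 of the circadian clock (median -0.09).

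Some genes on no list rose. Ccn5, a secreted matricellular protein, had 1.24 to 9.99 CPM (median 4.02) at 24 weeks, against 0.295 to 1.81 CPM (median 1.02) at 8 weeks (4.65-fold, adjusted p = 9.4e-05 in edgeR's test). Ndrg1, known as a hypoxia-responsive gene, had 16.5 to 52 CPM (median 21.5) at 24 weeks and 9.10 to 19.2 CPM (median 12.9) at 8 weeks (2.05-fold, adjusted p = 0.00077), and 4 of the 7 mice were above all at 8 weeks.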
